A study of Oryza sativa with 12 samples.

Results

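The comparison described here is between rice embryos deprived of oxygen and rice embryos treated with an uncoupler in air, both without a sugar they can use. It holds 4 of the 12 arrays of the study: 2 of MtlAC and 2 of MtlDNP, chosen by their labels, and it was made across all 36643 probe sets (called probes) of an Affymetrix rice array. All embryos came from the cultivar Dongjin, in lots of 150 to 200, and were kept in darkness for 24 h at 28 °C in 10 mM calcium chloride. In MtlAC and MtlDNP the medium held 60 mM mannitol, a sugar alcohol that takes the place of glucose at equal osmotic strength. MtlDNP embryos lay on wet paper in air with 0.08 mM 2,4-dinitrophenol (DNP). The labels do not spell out AC, which is read here as the anaerobic incubation of the protocol, in which embryos were submerged in 50 mL of medium flushed with nitrogen. MtlAC therefore differed from MtlDNP in submergence as well as in oxygen and DNP, and the effects of these cannot be told apart. Mtl embryos, on mannitol in air with no DNP, serve below as a reference level, and GlcAC and GlcDNP are the same 2 treatments with 60 mM glucose in place of mannitol.

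Oxygen loss and uncoupling both cut the yield of ATP from respiration, by different routes. Without oxygen the respiratory chain has no terminal electron acceptor, and plant cells regenerate NAD+ by ethanol fermentation, which lets glycolysis go on. DNP carries protons across the inner mitochondrial membrane, so that electrons still flow to oxygen while the proton gradient that drives ATP synthesis is lost. Rice is known among cereals for germinating under water, and in this species sugar starvation and oxygen shortage both act on alpha-amylase genes that release sugar from starch.

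The values are log2 expression levels after RMA, the normalisation described under the processing. Replicates are termed technical in the design text, which counts 6 rice samples, so the 2 arrays of a condition may hold the same RNA, and all p-values measure only the spread between arrays. That text names saliva as the material, while every sample label gives embryo. Array medians lay between 3.231 and 3.311. The SD across probes was 1.668 and 1.682 in the MtlAC arrays, 1.639 and 1.675 in MtlDNP and 1.848 and 1.833 in Mtl. The 2 arrays of a condition correlated across all probes at 0.957 in MtlAC and 0.95 in MtlDNP. Of the embryo markers, the oleosin gene OLE18 had a mean of 7.83 in MtlAC and 8.49 in MtlDNP and the Em gene EM had 7.76 and 8.48, whereas the homeobox gene OSH1 was dim at 3.10 and 3.29. Summed over the 4 embryo markers, the log2 levels came to 26.87 and 26.33 in the MtlAC arrays and 28.71 and 28.57 in the MtlDNP arrays. In Mtl the means were 6.42 for OLE18, 5.96 for EM and 6.83 for LEA19, below both treatments, and 3.11 for OSH1. A sum of log2 levels weighs dim and bright genes alike. Markers whose level moves with treatment are no fixed measure of tissue make-up. Over 6 endosperm markers the sum was 19.8 and 19.89 in MtlAC against 18.97 and 17.88 in MtlDNP. Over 3 green shoot markers it was 7.23 and 7.19 against 6.85 and 6.88. None of these 13 markers, nor the root marker Lsi1, passed the test between MtlAC and MtlDNP. The part of tissue make-up in the results was not tested, and in whole embryos fewer cells of a type and less RNA per cell cannot be told apart.

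Embryos without oxygen had higher levels than DNP-treated embryos of 2 of 3 fermentation genes, 7 of 21 glycolysis probes, the sucrose synthase gene OsSUS2, the alpha-amylase gene RAmy3D and 2 leucine breakdown genes, of 11 neighbouring genes of which 2 are chitinase genes by name and 1 a xylanase inhibitor gene, and of the regulators SAUR39 and DREB1I. They had lower levels of the alternative oxidase gene AOX1, the hydrolase gene Pir7b and the cysteine protease inhibitor gene gKOCIII. A probe was called when the limma test over all 12 arrays gave a Benjamini-Hochberg adjusted p under 0.05 and the difference was at least 1 on the log2 scale, a fold of 2. In total 750 probes were called, 2.05% of those tested. Of these, 571 were higher in MtlAC (1.56% of all probes) and 179 were lower (0.488%). Counts of calls in the gene lists below are to be read against these shares. The differences upward were also wider: 138 of the 571 were at least 4-fold and 39 at least 8-fold, against 19 and 1 of the 179. The median difference over all probes was -0.04. A gene symbol or synonym that says something of the product was at hand for 84 of the higher and 20 of the lower probes, so most calls are of genes that are not named here.

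The count depends on how the spread between arrays is estimated. With 6 conditions sharing 1 estimate it was 750, and with only the 4 compared arrays it was 116, of which 115 were among the 750. Without replicate 1 of MtlAC it was 484, and without replicate 2 of MtlAC 389. Of 54 called genes described below under the rule for named genes, 14 were also called with only the 4 compared arrays: SAUR39, Chib3H-h, salT, HXK6, DREB1I, RAmy3D, CAD7, Chib3H-a, OsSUS2, FBA1, AOX1, IVD, PDC2 and OsTPP1. The other 40 had adjusted p = 0.0517 to 0.257 there. All 54 kept their direction without each of the 4 arrays in turn, and 33 kept their call without each of them. Where a call named below was lost when 1 array was left out, this is said beside it.

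**Figure D1:**
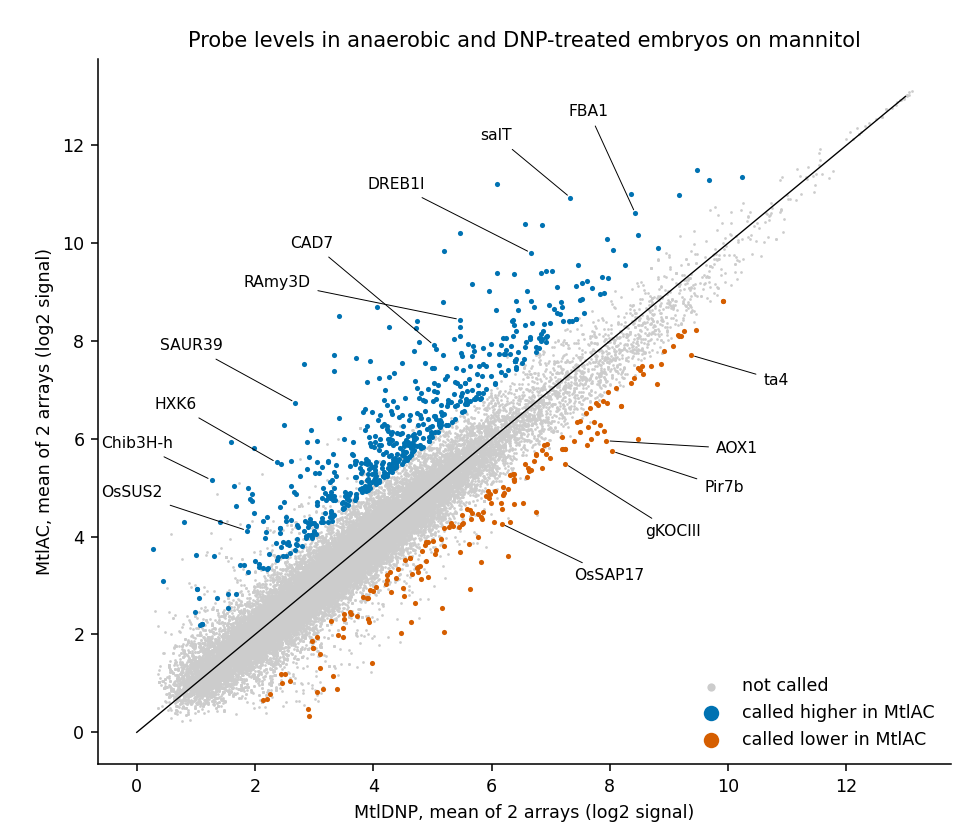
Mean log2 level of each of the 36643 probes in MtlDNP (horizontal) and MtlAC (vertical), n = 2 arrays each, with the line of equal levels. The 571 probes called higher in MtlAC are blue, the 179 called lower are orange and the rest are grey. The blue points reach further from the line than the orange points, and 14 named genes are marked.

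The level in untreated air differed between both sets of calls. Among the 571 probes higher in MtlAC, the median level was 5.97 in Mtl, 6.00 in MtlAC and 4.37 in MtlDNP. Among the 179 lower probes it was 4.84 in Mtl, 4.40 in MtlAC and 5.82 in MtlDNP. In both sets the median of MtlAC lay nearer to that of Mtl than the median of MtlDNP did. This describes levels of probes that were chosen for their difference between MtlAC and MtlDNP, and it is no test. Against Mtl itself, 4475 probes (12.2%) were called in MtlAC and 5983 (16.3%) in MtlDNP, and these comparisons share arrays with each other and with the main one. The median of all probes was 0.10 higher in MtlAC and 0.15 higher in MtlDNP than in Mtl, but -0.02 and -0.01 among probes at or above the median level, so this shift lay in the dim probes.

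The 12 named genes with the widest differences upward had different levels in air. SAUR39, a small auxin-up RNA gene whose product lowers auxin synthesis and transport in rice, was at 6.76 and 6.72 in the MtlAC arrays and 2.72 and 2.65 in the MtlDNP arrays, with 4.81 and 4.62 in Mtl. Its difference of 4.06 ± 0.23 (SE, n = 2 arrays in each condition here and below; 16.6-fold, adjusted p = 2.24e-05) was the widest among the genes that could be named. The salT gene, which encodes a mannose-binding lectin first found under salt stress, was at 10.98 and 10.88 in MtlAC and 7.18 and 7.49 in MtlDNP (3.59 ± 0.18). Mtl held as much as 11.62 and 11.56 of salT, so MtlDNP was the condition apart. DREB1I, an AP2/ERF-type transcription factor gene, showed the other pattern. It was at 9.77 and 9.83 in MtlAC and 6.45 and 6.88 in MtlDNP (3.13 ± 0.19), against 6.60 and 6.53 in Mtl.

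CAD7, a cinnamyl alcohol dehydrogenase gene of lignin synthesis also known as FC1, was at 8.14 and 7.69 in MtlAC and 5.31 and 4.74 in MtlDNP (2.89 ± 0.26). Both were above the 3.95 and 3.49 of Mtl. The ABC transporter gene ABCG39 was at 4.43 and 5.33 in MtlAC and 2.38 and 3.01 in MtlDNP (2.19 ± 0.33, adjusted p = 0.00725), close to Mtl at 2.49 and 2.71 in the latter. Its call was lost without replicate 1 of MtlDNP or replicate 2 of MtlAC, with a highest adjusted p = 0.0554. The zinc finger gene OsC3H37 was at 10.00 and 10.15 in MtlAC and 7.89 and 8.0 in MtlDNP (2.13 ± 0.16). For CAD7, ABCG39, OsC3H37 and DREB1I, both MtlAC arrays were above all arrays of the other 2 conditions.

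**Figure D2:**
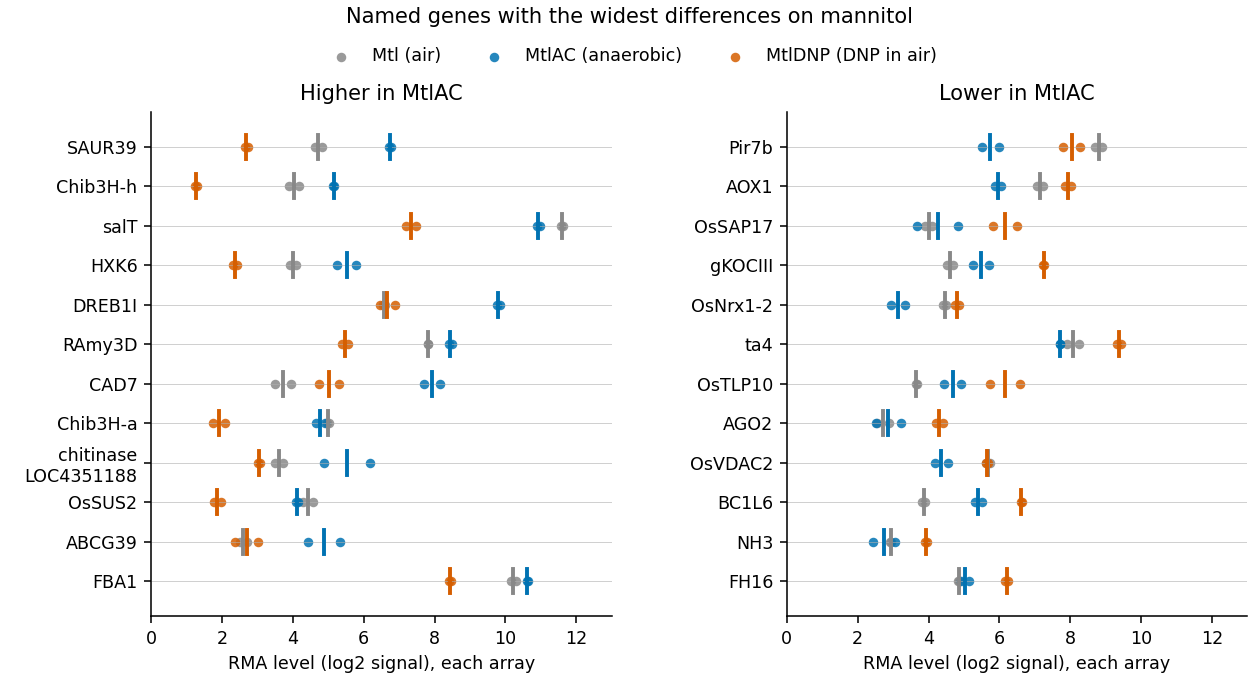
Log2 levels of the 12 named genes with the widest differences upward (left) and the 12 with the widest differences downward (right). Points are single arrays of Mtl, MtlAC and MtlDNP and short bars are means of 2. On the left MtlDNP is the lowest condition for SAUR39, Chib3H-h, salT, HXK6, RAmy3D and others, while DREB1I and ABCG39 have MtlDNP level with Mtl.

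Of 3 fermentation genes matched by name 2 were called higher without oxygen than with DNP, and of 21 glycolysis probes 7. Members without an informative name are not counted in these or the other lists. PDC2 encodes pyruvate decarboxylase, the first enzyme of ethanol fermentation. It was at 8.42 and 8.22 in MtlAC, 6.46 and 6.30 in MtlDNP and 7.01 and 6.82 in Mtl, a difference between the first 2 of 1.94 ± 0.18 (3.84-fold, adjusted p = 0.000342). Adh2, an alcohol dehydrogenase gene, was at 3.70 and 3.16 in MtlAC and 1.77 and 1.73 in MtlDNP (1.68 ± 0.20). The MtlDNP level of Adh2 lies below 2.28, the 25th percentile of the 4 arrays. A level this low may be background, so the size of the Adh2 difference is uncertain and no fold is given. PDC3, a further pyruvate decarboxylase gene, stood at -0.09 ± 0.20. The list median was 1.68.

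The 7 glycolysis calls were all upward, with a list median of 0.29, against 1.56% called higher and a median of -0.04 over all probes. Positive differences were found for 20 of the 21. HXK6 encodes a hexokinase, the enzyme that brings glucose into glycolysis. It was at 5.24 and 5.79 in MtlAC and 2.43 and 2.30 in MtlDNP (3.15 ± 0.24, adjusted p = 0.00011), with 4.09 and 3.92 in Mtl. Its MtlDNP level lies just above 2.28, so the size of the HXK6 difference is uncertain too. FBA1, a fructose-bisphosphate aldolase gene, was at 10.60 and 10.63 in MtlAC and 8.40 and 8.46 in MtlDNP (2.18 ± 0.15, 4.54-fold), and Mtl lay near MtlAC at 10.29 and 10.14. The aldolase gene AldC-1 was at 9.22 and 9.35 against 8.13 and 7.80 (1.32 ± 0.18), and the triosephosphate isomerase gene Rictpi2 at 5.20 and 5.03 against 3.02 and 3.52 (1.84 ± 0.19). In each of these 4 genes both MtlAC arrays lay above both MtlDNP arrays. This held for all 571 probes called higher, so it adds nothing to the calls. Arrays of both conditions lay apart in one direction or the other for 42.6% of all probes.

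The other 3 glycolysis calls, named because they complete the count, were the enolase gene AD709 (1.28 ± 0.17), the glyceraldehyde-3-phosphate dehydrogenase gene GAPC3 (1.15 ± 0.22) and CPDK2, a pyruvate phosphate dikinase gene (1.03 ± 0.15). GAPC3 was not called without replicate 1 of MtlDNP or without either MtlAC array, and CPDK2 was not called without replicate 2 of MtlAC. CPDK2 reached 3.78 and 3.86 in MtlAC and 2.80 and 2.78 in MtlDNP.

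Genes that supply sugar showed 1 called member in each list, among others that did not pass the test. OsSUS2, a sucrose synthase gene, was at 4.10 and 4.15 in MtlAC and 1.77 and 1.97 in MtlDNP (2.25 ± 0.18, adjusted p = 0.00014), with the MtlDNP level again under 2.28 and the size uncertain. Its Mtl arrays, at 4.57 and 4.29, lay beside those of MtlAC. It was the 1 called of 17 probes for sucrose synthases and invertases (median 0.01). CINV1, an invertase gene, stood at 0.87 ± 0.21 (adjusted p = 0.0626) and OsSUS4 at -0.55 ± 0.19. RAmy3D, the alpha-amylase gene best known for its response to sugar starvation, was at 8.40 and 8.48 in MtlAC and 5.39 and 5.54 in MtlDNP (2.97 ± 0.16, 7.83-fold, adjusted p = 1.85e-05). Mtl, at 7.82 and 7.81, lay below MtlAC and well above MtlDNP. The other 5 alpha-amylase probes matched by name were not called, and the list median was -0.12.

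OsTPP1, a trehalose-6-phosphate phosphatase gene, was at 5.99 and 6.10 in MtlAC and 3.93 and 3.92 in MtlDNP (2.12 ± 0.17), with 6.80 in both Mtl arrays, and was the 1 called of 9 trehalose probes. OsSWEET4, a sugar transporter gene, was at 7.62 and 7.84 in MtlAC and 6.31 in both MtlDNP arrays (1.42 ± 0.19). Mtl was again close to MtlAC, at 7.67 and 7.98. It was the 1 called of 24 sugar transport probes, whose median was -0.14. The monosaccharide transporter gene MST3 stood at 0.65 ± 0.28.

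The calcium-dependent regulator genes CIPK15 and CBL10 were higher in MtlAC than in MtlDNP, and both were highest in air. CIPK15 is a protein kinase that in rice links oxygen shortage to sugar starvation signalling and RAmy3D. It was at 5.70 and 5.99 in Mtl, 2.81 and 4.04 in MtlAC and 1.74 and 1.88 in MtlDNP, there under 2.28. Its 2 MtlAC arrays lay further apart than the lower of them lay from MtlDNP. Its difference of 1.61 ± 0.34 (adjusted p = 0.0335) lost its call without either MtlDNP array and without replicate 2 of MtlAC, where it was 1.0. CBL10, a calcineurin B-like calcium sensor gene, was at 6.06 and 6.09 in MtlAC and 4.93 and 4.40 in MtlDNP (1.41 ± 0.20). These were 2 of the 43 probes of the signalling kinase list (4.65%, against 2.05% of all probes). The list median was 0.11, and CIPK14 stood at 1.15 ± 0.28 (adjusted p = 0.0671).

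The leucine breakdown genes IVD and MCCA and the glyoxylate cycle gene ICL were higher without oxygen than with DNP, and highest in air. IVD encodes isovaleryl-CoA dehydrogenase of leucine breakdown. Its level was 8.31 and 8.28 in Mtl, 7.46 and 7.53 in MtlAC and 5.72 and 5.54 in MtlDNP, and the difference between the last 2 was 1.86 ± 0.17 (3.64-fold, adjusted p = 0.000321). MCCA, a methylcrotonyl-CoA carboxylase subunit gene of the same pathway, was at 6.84 and 7.19 in Mtl, 5.69 and 6.12 in MtlAC and 4.16 and 4.37 in MtlDNP (1.64 ± 0.22). These were 2 of 5 amino acid catabolism probes, all 5 with positive differences, and the glutamate dehydrogenase gene GDH2 stood at 0.43 ± 0.27. ETF-QO, which takes electrons from IVD to ubiquinone and was picked after its values were seen, was at 5.29 and 5.71 in MtlAC and 3.91 and 3.82 in MtlDNP (1.64 ± 0.18). ICL, the isocitrate lyase gene of the glyoxylate cycle, was at 7.65 and 7.55 in Mtl, 5.57 and 6.20 in MtlAC and 4.27 and 4.00 in MtlDNP (1.74 ± 0.22, adjusted p = 0.00277). The malate synthase gene MS stood at 0.20 ± 0.26, with its sign turned without replicate 1 of MtlDNP (-0.14), and the multifunctional beta-oxidation gene MFP at 0.35 ± 0.16.

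AOX1 ran the other way. It encodes the alternative oxidase, which passes electrons from ubiquinone to oxygen without pumping protons. It was at 5.88 and 6.04 in MtlAC and 7.85 and 8.02 in MtlDNP, with 7.22 and 7.06 in Mtl, so air lay between the treatments. The difference was -1.98 ± 0.19 (3.94-fold lower, adjusted p = 0.000512). The other 3 respiratory probes were not called: the cytochrome c oxidase gene COX5c stood at 0.70 ± 0.21, the adenine nucleotide translocator gene ANT at -0.10 ± 0.17 and atpB at -0.79 ± 0.23. OsVDAC2, for a porin of the outer mitochondrial membrane, was lower in MtlAC, at 4.54 and 4.19, than in MtlDNP, at 5.68 and 5.63, or in Mtl, at 5.75 and 5.62 (-1.29 ± 0.18). Of 10 tricarboxylic acid cycle probes none was called by limma (median 0.14), and 2 had an unadjusted p under 0.05, against 5547 of all 36643 probes.

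Of 69 antioxidant probes 4 were called higher and none lower (median 0.04), against 1.56% and 0.488% of all probes. All 4 encode glutaredoxins, which reduce disulphides with glutathione. GRXC3 was at 6.42 and 6.37 in MtlAC and 4.53 and 4.67 in MtlDNP (1.79 ± 0.15, adjusted p = 0.00026). GRXC8 was higher by 1.35 ± 0.22, GRXC4 by 1.31 ± 0.20 and GRXS2 by 1.20 ± 0.25. The Mtl mean was above that of MtlAC for GRXC8 (9.86) and GRXS2 (4.82). It was below that of MtlAC for GRXC3 (5.68) and GRXC4 (5.47). Only GRXC3 of these 4 was called without each of the 4 arrays in turn. GRXC8 was not called without replicate 1 of MtlDNP or replicate 2 of MtlAC, GRXC4 without replicate 2 of MtlAC, and GRXS2 whichever of the 4 was left out. OsNrx1-2, a nucleoredoxin gene, was at 3.33 and 2.95 in MtlAC and 4.87 and 4.75 in MtlDNP (-1.67 ± 0.21). The non-symbiotic hemoglobin gene NSHB1 was at 7.25 and 7.50 in MtlAC and 5.90 and 6.41 in MtlDNP (1.22 ± 0.20). Both conditions lay below the Mtl mean of 8.16. The NSHB1 call was lost without replicate 1 of MtlDNP or replicate 2 of MtlAC. NSHB2 stood at 0.83 ± 0.17, NSHB3 at -0.38 ± 0.33 and NSHB4 at 0.11 ± 0.23.

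Stress and dormancy genes gave few calls. All 9 late embryogenesis abundant probes, for proteins that protect drying seeds, had negative differences, with a list median of -0.61. Of these 9 only the dehydrin gene RAB16C was called, at 7.11 and 6.79 in MtlAC and 8.02 and 7.92 in MtlDNP (-1.02 ± 0.17, adjusted p = 0.0122). Both were above Mtl, at 4.82 and 4.86. The RAB16C call was lost without replicate 1 of MtlDNP or replicate 2 of MtlAC, and with each array centred on its median the difference was -0.99. RAB16B stood at -0.82 ± 0.18, rab25 at -0.82 ± 0.22 and EM at -0.72 ± 0.17. EM and LEA19 are also among the 4 embryo markers, whose summed level was lower in MtlAC as given above, and the part of that in this list was not tested.

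Of 21 heat shock factor probes 1 was called, lower. HSF07, also called HSFA3, was at 5.63 and 5.72 in MtlAC, 6.52 and 6.98 in MtlDNP and 3.65 and 3.41 in Mtl (-1.08 ± 0.19), and its call was lost without replicate 2 of MtlDNP and without either MtlAC array. No heat shock protein probe of 26 was called by limma (median 0.07), and 2 had an unadjusted p under 0.05, against 5547 of all 36643 probes. In the DREB list DREB1I was the 1 called of 12, and 4 of the 12, DREB1I among them, had positive differences and 8 negative. DREB1B stood at -0.97 ± 0.22, DREB1H at -0.81 ± 0.18 and DREB2B at -0.65 ± 0.18, and the list median was -0.34 although DREB1I itself was 8.77-fold higher. NAC068 was higher by 1.09 ± 0.18 and OsWRKY62 by 1.13 ± 0.20, each the 1 called of its list, of 10 and 6 probes. Both calls were lost without replicate 1 of MtlDNP or replicate 2 of MtlAC.

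**Figure D3:**
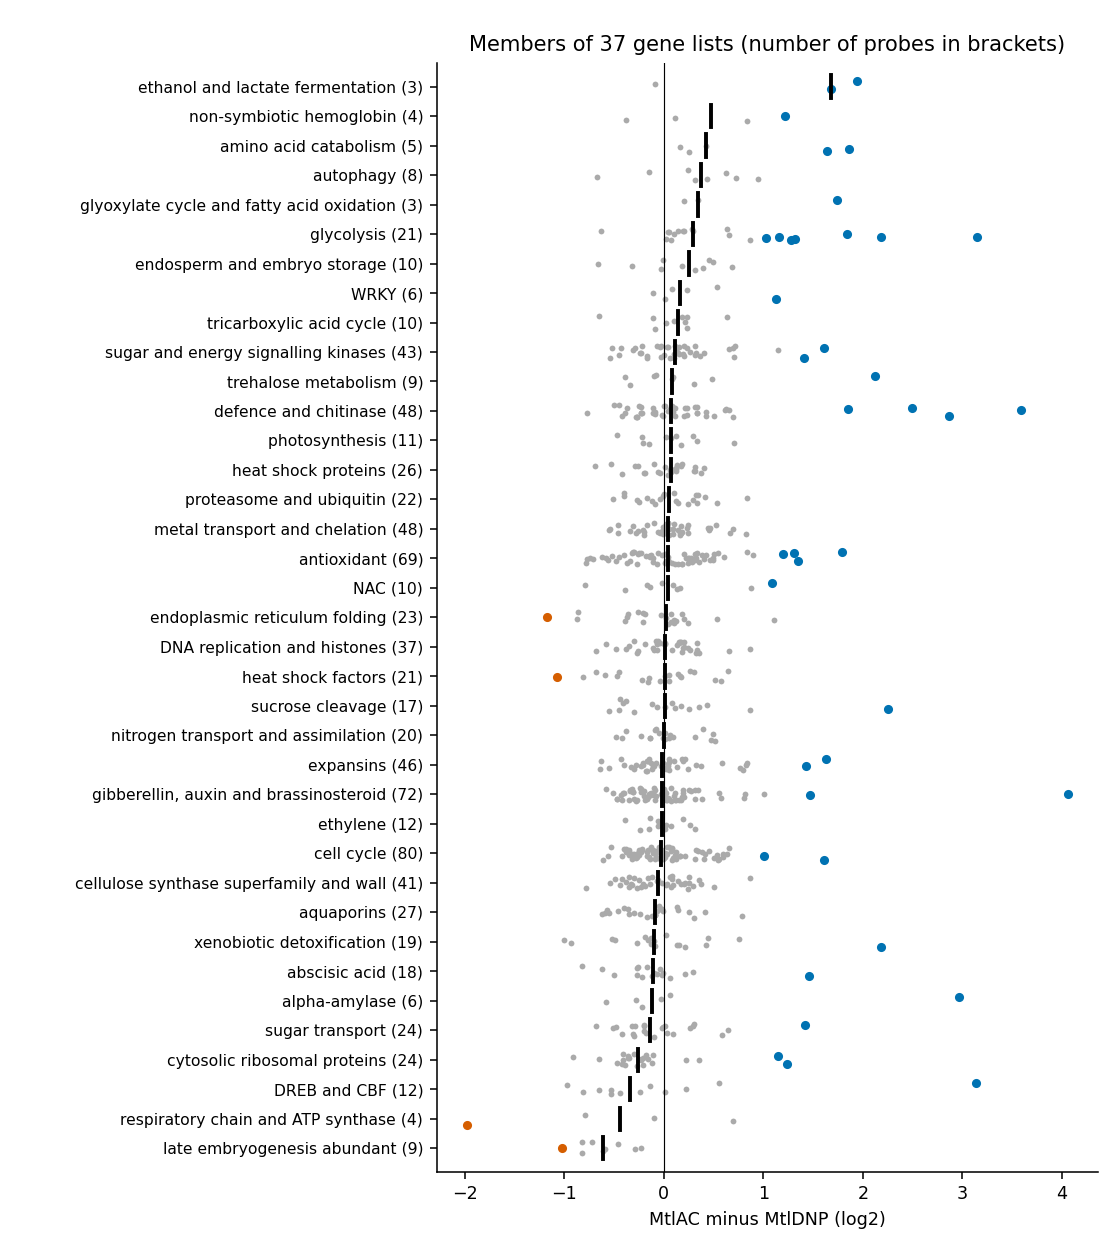
Log2 difference between MtlAC and MtlDNP for the members of 37 gene lists, ordered by list median (black bar), with the number of probes in brackets. Blue points were called higher in MtlAC, orange points called lower and grey points not called, and vertical scatter within a list has no meaning. Most members lie within 1 of zero, and fermentation has the highest and late embryogenesis abundant the lowest median.

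Of 72 auxin, gibberellin and brassinosteroid probes 2 were called, SAUR39 and CYP90D2, and of 80 cell cycle probes 2. Both shares are near the 2.05% called over all probes, so these counts say nothing particular of the lists. CYP90D2, of brassinosteroid synthesis, was at 6.63 and 6.84 in MtlAC and 5.56 and 4.98 in MtlDNP (1.47 ± 0.23), lost without replicate 2 of MtlAC. ABA8OX1, which breaks down abscisic acid, was at 8.54 and 8.61 in MtlAC and 7.12 and 7.10 in MtlDNP (1.46 ± 0.24, adjusted p = 0.0105), but its call was lost whichever of the 4 arrays was left out. It was the 1 called of 18 abscisic acid probes. The 2 cell cycle calls were for inhibitors of cyclin-dependent kinases: KRP5, at 8.62 and 8.70 in MtlAC and 7.05 and 7.07 in MtlDNP (1.60 ± 0.16), and KRP4 (1.01 ± 0.22). KRP4 lost its call whichever of the 4 arrays was left out. Of 46 expansin probes, for proteins that loosen cell walls, 2 were called (4.35%, against 2.05% of all probes). EXP4 was at 4.97 and 4.84 in MtlAC, 3.64 and 2.93 in MtlDNP and 6.18 and 6.24 in Mtl (1.63 ± 0.23), and EXLA1 at 8.04 and 8.13 in MtlAC and 6.69 and 6.62 in MtlDNP (1.43 ± 0.15).

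Among the genes lower in MtlAC, Pir7b had the widest difference that could be named. It encodes an esterase first found in rice leaves exposed to bacteria, and was at 5.98 and 5.51 in MtlAC, 7.80 and 8.27 in MtlDNP and 8.90 and 8.71 in Mtl (-2.29 ± 0.22, 4.88-fold lower, adjusted p = 0.000454). The cysteine protease inhibitor gene gKOCIII, also called OC-II, was at 5.71 and 5.27 in MtlAC, 7.23 and 7.26 in MtlDNP and 4.68 and 4.51 in Mtl (-1.75 ± 0.20). Unlike Pir7b, its level was lowest in air. The gene ta4 was lower by 1.66 ± 0.19, the brittle culm-like gene BC1L6 by 1.20 ± 0.16 and the formin gene FH16 by 1.18 ± 0.18.

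The remaining named genes in this direction had calls that rested on particular arrays. OsSAP17, a stress-associated zinc finger gene, was at 4.84 and 3.68 in MtlAC and 5.83 and 6.51 in MtlDNP (-1.91 ± 0.35, adjusted p = 0.02), lost without replicate 2 of either condition. The tubby-like gene OsTLP10 (LOC4339597; -1.49 ± 0.28) was called only with all arrays or without replicate 1 of MtlDNP. The argonaute gene AGO2 (-1.44 ± 0.27) was called without replicate 1 of MtlAC but not without any of the other 3. NH3, a relative of the defence regulator NPR1 (-1.18 ± 0.24), was called without replicate 2 of MtlAC but not without the others, and FH16 was lost without replicate 1 of MtlAC.

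The widest difference of all belonged to 1 of a set of neighbouring genes. When the 24159 genes with 1 probe were put in the order of the RefSeq annotation, 11 measured genes in a row, from LOC4351185 to LOC4351198, were called higher in MtlAC. This was looked for after 3 of them had appeared among the named genes. Runs of at least 2 genes called the same way numbered 13, all of them higher in MtlAC, and the other 12 held 2 genes each. Within the long run 3 genes carry names: Chib3H-h, a chitinase gene (LOC4351188) and Chib3H-a, which is also listed as RIXI and XIP-I, names of xylanase inhibitors related to class III chitinases. The other 8 have no product name in the tables used. Genes that lie side by side and may be near-identical copies can share probe signal, so the 11 values are not shown to be separate.

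The highest level in the run was that of LOC4351192, at 11.19 and 11.24 in MtlAC, 5.58 and 6.60 in MtlDNP and 10.56 and 10.35 in Mtl. Its difference of 5.12 ± 0.30 was the widest of all 750 called probes (adjusted p = 2.89e-05). Chib3H-h was at 5.14 and 5.17 in MtlAC, 1.24 and 1.29 in MtlDNP and 4.16 and 3.89 in Mtl (3.89 ± 0.26), and its MtlDNP level lies below the 25th percentile. The same holds for Chib3H-a, so the size of both differences is uncertain. Chib3H-a was at 4.65 and 4.90 in MtlAC and 2.08 and 1.74 in MtlDNP (2.87 ± 0.30), with Mtl at 4.96 and 5.03. The chitinase gene LOC4351188 was at 6.17 and 4.89 in MtlAC and 3.08 and 3.00 in MtlDNP (2.49 ± 0.34), with Mtl near the latter at 3.48 and 3.72. LOC4351186 resembled it, at 7.25 and 7.52 in MtlAC, 2.91 and 3.75 in MtlDNP and 4.21 and 4.42 in Mtl (4.05 ± 0.29).

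Across the run the differences were 2.11 to 5.12. No MtlDNP array was as high as a MtlAC array of the same gene, which held for all 571 probes called higher and so adds nothing to the calls. LOC4351184, the next measured gene on one side, stood at 0.04 ± 0.18, and LOC9269083 on the other side at -0.10 ± 0.17. Both were dim in all conditions, under 2.28. Whether their probes can report a difference was not tested, so the ends of the run are not shown. All 11 genes were called without each of the 4 arrays in turn, and 9 with only the 4 compared arrays. With glucose all 11 were also called higher in GlcAC than in GlcDNP, by 1.5 to 4.66. These levels come from other arrays, but both contrasts use the same estimate of the spread, so the calls are not independent. Rcb4, a chitinase gene outside the run, was at 5.67 and 5.44 in MtlAC and 3.51 and 3.89 in MtlDNP (1.85 ± 0.20). With salT, Chib3H-a and LOC4351188 it made 4 called of the 48 defence probes (8.33%, against 2.05% of all probes). The median of these 48 was 0.07.

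**Figure D4:**
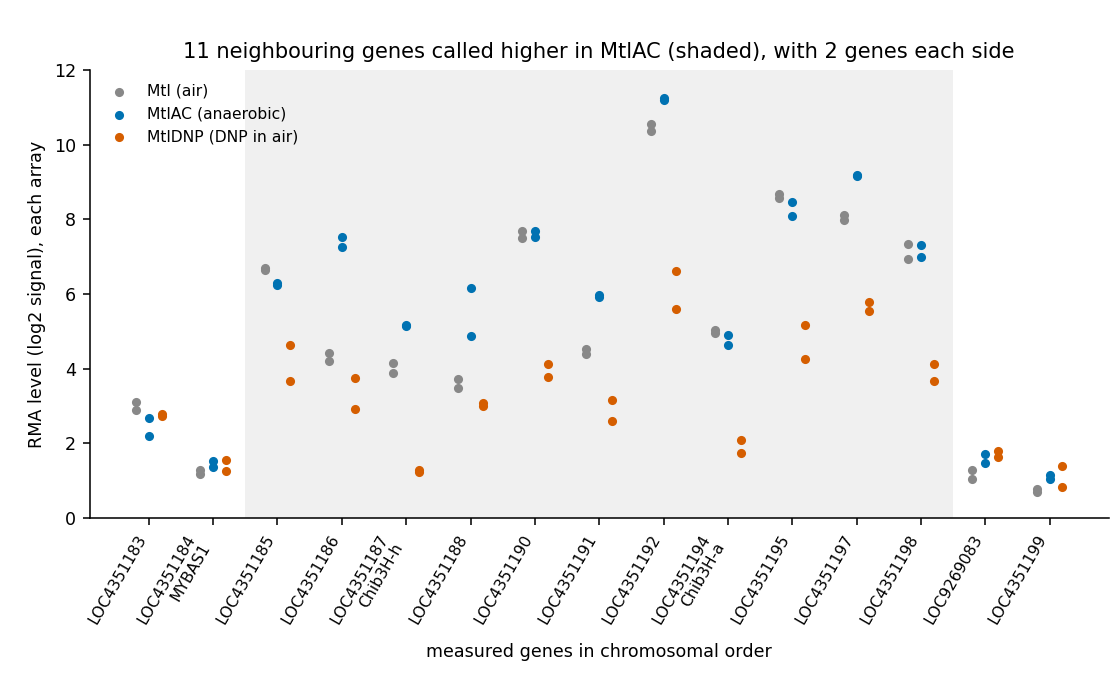
Log2 levels in single arrays of Mtl, MtlAC and MtlDNP for 11 neighbouring genes (shaded) and 2 measured genes on each side, in chromosomal order and not to scale. MtlDNP lies below MtlAC for every shaded gene, and Mtl is near MtlAC for LOC4351190 and LOC4351198 and near MtlDNP for LOC4351188. The outer genes show no called difference, and all of them but LOC4351183 are dim, under 2.28.

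Protein synthesis and folding genes gave isolated calls. Of 24 ribosomal protein probes 2 were called higher, CL18 (1.23 ± 0.21) and CL27 (1.15 ± 0.23), each lost in 3 of the 4 fits that leave out an array. Both were far below Mtl, as CL18 was at 7.52 and 7.54 in Mtl, 5.11 and 5.17 in MtlAC and 3.68 and 4.13 in MtlDNP. The list median was -0.26, opposite in sign to the 2 calls, and RPL39B stood at -0.91 ± 0.16. Over all probes 1.56% were called higher. OsPDIL5-3, a protein disulphide isomerase-like gene, was the 1 called of 23 endoplasmic reticulum folding probes, lower by 1.17 ± 0.19, and was lost in 3 of the 4 fits. In the xenobiotic list of 19 probes ABCG39 was the 1 called, and ABCG36 stood at -1.0 ± 0.21. No autophagy probe of 8 was called by limma (median 0.37), though 5 had an unadjusted p under 0.05, against 5547 of all 36643 probes. The ubiquitin-like gene APG8C stood at 0.95 ± 0.18.

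Of the 272 probes in lists without a call by limma, 37 had an unadjusted p under 0.05, against 5547 of all 36643 probes. Such lists numbered 12 of the 37. They included 37 probes for DNA replication and histones (median 0.02), 41 for cellulose synthases and walls (-0.05), 27 aquaporins (-0.09), 48 for metal transport (0.05), 20 for nitrogen transport and assimilation, 12 for ethylene (-0.02), 22 for the proteasome (0.05), 11 for photosynthesis (0.07) and 10 for storage (0.25). Of the 868 probes in any list, 40 were called higher and 4 lower, against 571 and 179 of all 36643 probes. A probe that was not called is not shown to be equal in the 2 conditions.

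The same contrast on glucose compares other arrays, normalised together with these and tested with the same estimate of the spread. There 1929 probes (5.26%) were called, 1454 higher in GlcAC (3.97%) and 475 lower (1.3%). Without replicate 2 of GlcAC the count was 1216, and after quantile normalisation the share of higher calls was 62.8% in place of 75.4%. Of the 571 probes higher in MtlAC, 360 (63%) were called higher on glucose and 4 lower. They make up 24.8% of the 1454. Of the 179 lower probes, 78 (43.6%) were called lower on glucose and 6 higher, and they make up 16.4% of the 475. Over all 36643 probes the differences on mannitol and on glucose correlated at r = 0.407, across probes that are not independent and with normalisation in common.

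Genes described above that kept the contrast on glucose included CAD7 (4.69 on glucose), Chib3H-a (4.12), SAUR39 (3.09), FBA1 (2.89), OsTPP1 (2.68), OsSUS2 (2.49), Adh2 (2.33), PDC2 (2.31), AOX1 (-1.96) and gKOCIII (-2.18), all called there. Glycolysis also had 7 of 21 called higher on glucose, against 3.97% of all probes. ICL (-0.10), MCCA (0.08), IVD (0.59), CIPK15 (0.31), EXLA1 (0.21), OsVDAC2 (-0.18) and Pir7b (-0.77) were not called on glucose. A missing call on glucose does not show a difference between the sugars. The limma test of that difference, given in the next paragraph, called ICL and EXLA1. It did not call MCCA, IVD, CIPK15, OsVDAC2 or Pir7b (adjusted p = 0.0573 to 0.311). Late embryogenesis abundant genes had 6 of 9 called lower on glucose and heat shock proteins 5 of 26, against 1.3% of all probes there. A difference between the sugars is not shown for either list. The limma test of it, described next, called 0 of the 9 and 0 of the 26. In that test 5 and 14 had an unadjusted p under 0.05, against 4343 of all 36643 probes.

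Whether the contrast differed between sugars was tested as the mannitol difference minus the glucose difference. This called 154 probes (0.42%), 35 with the more positive difference on mannitol (0.0955%) and 119 with the more positive difference on glucose (0.325%). The count rests on single arrays. In limma it was 0 without replicate 2 of GlcAC (3364 probes at an unadjusted p under 0.05), 1 without replicate 1 of GlcAC and 24 to 73 without each of the other 6 arrays. With only the 8 arrays of the 4 conditions limma called 0 (3971 at an unadjusted p under 0.05). None of the 12 genes named next kept its call without each of the 8 arrays in turn, though all kept their direction. After quantile normalisation 118 were called, 44.1% of them more positive on mannitol in place of 22.7%.

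Among the 6 named genes more positive on mannitol, RAmy3D was at 8.40 and 8.48 in MtlAC, but 6.68 and 6.45 in GlcAC. With DNP it was at 5.39 and 5.54 on mannitol and 5.61 and 5.53 on glucose, so the 2 sugars differed without oxygen and were close with DNP (difference of differences 1.97 ± 0.23, adjusted p = 0.0146). It was lost without either GlcAC array and without replicate 2 of MtlAC. ICL behaved in the same way, at 4.37 and 4.40 in GlcAC and 4.52 and 4.44 in GlcDNP (1.84 ± 0.31). DREB1I was at 8.39 and 8.24 in GlcAC and 6.74 and 6.96 in GlcDNP (1.67 ± 0.26). The lectin gene salT differed with DNP instead: GlcDNP was at 9.15 and 8.82, above MtlDNP, while GlcAC was at 11.13 and 11.10 (1.47 ± 0.25). Chib3H-h (2.39 ± 0.36) and OsC3H37 (1.31 ± 0.23) complete the group.

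Among the 6 named genes more positive on glucose, OsPPT3, a plastid phosphoenolpyruvate transporter gene, was at 6.52 and 6.58 in GlcAC and 4.13 and 4.00 in MtlAC. With DNP it was at 3.58 and 3.59 on glucose and 3.46 and 3.51 on mannitol (-2.38 ± 0.26, adjusted p = 0.0146), and only leaving out a GlcAC array ended its call. CYP85A1, which encodes the C-6 oxidase of brassinosteroid synthesis, was at 6.03 and 6.30 in GlcAC, 3.45 and 3.54 in GlcDNP, 4.34 and 4.48 in MtlAC and 3.81 and 3.39 in MtlDNP (-1.86 ± 0.29). The ribosomal protein gene RPL39C was at 9.33 and 9.32 in GlcAC against 7.51 and 7.37 in MtlAC (-1.88 ± 0.24). PAC1A, a proteasome subunit gene (-1.94 ± 0.27), opda, an oxophytodienoate reductase gene (-1.94 ± 0.29), and SPC22, a signal peptidase subunit gene (-1.83 ± 0.26), were likewise highest in GlcAC of these 4 conditions.

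**Figure D5:**
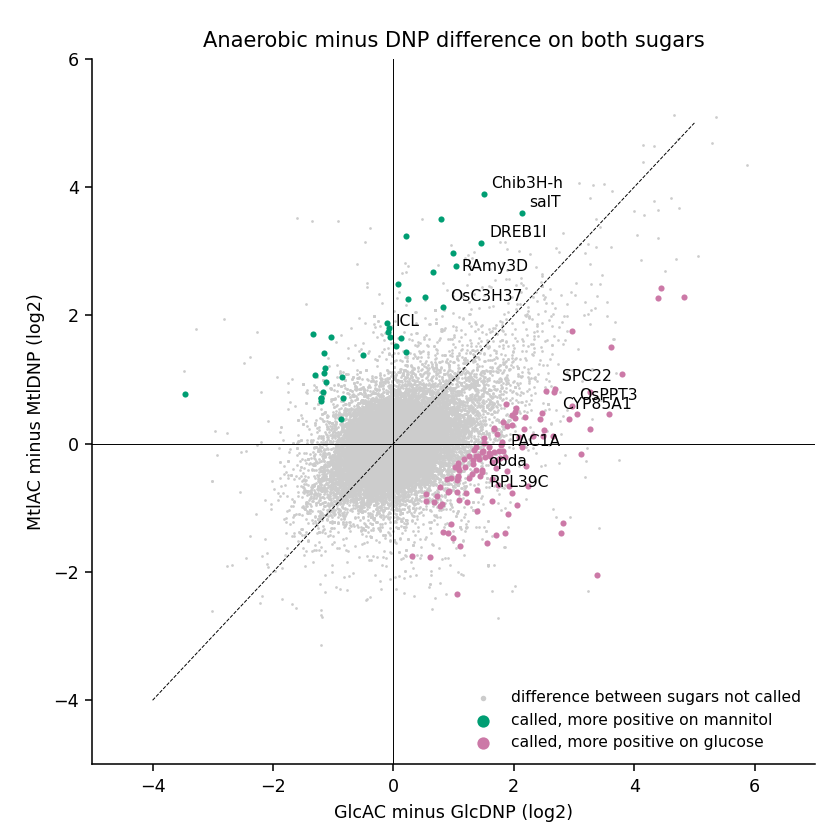
Log2 difference between the anaerobic and the DNP condition for each of the 36643 probes, on glucose (horizontal) and on mannitol (vertical), with a dashed line of equal differences. Green points are the 35 probes whose difference was called more positive on mannitol and pink points the 119 called more positive on glucose. Most pink points lie to the right near the horizontal axis, and the 12 named genes are marked.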

How the data were processed

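Rice embryo RNA was hybridised to 12 Affymetrix RJpGene-1_1-st arrays, 2 per condition. The authors deposited log2 values which, per the labels, Expression Console produced by RMA with core-level summaries. The submitters' processing notes also list Affymetrix Power Tools. Neither software versions nor the genome build were given in the sources used here. The log base was taken as 2 from the range, -0.49 to 13.12. RMA forces arrays toward a common distribution, so a shift shared by most genes is removed. The SD of the deposited arrays still differed, as given above. The number of arrays limits the precision, and all 12 columns were used.

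Of 36643 probes, 24161 had 1 gene in the platform table, 90 several and 12392 none listed. All 24161 matched the RefSeq table (GCF_034140825.1), used for names and gene order, and 2736 had an informative symbol or synonym. No coordinates or sequences are printed.

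The test was limma 3.58.1 (R 4.3.3), fitted with 1 coefficient per condition to 12 arrays. It had 6 residual degrees of freedom and a prior of 3.82, and p-values were adjusted by Benjamini-Hochberg across all probes. The code was tested on simulated data. Higher and lower compare conditions at 24 h, not a change over time. Errors are SE.

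Genes were named by rank of the log2 difference among called probes with an informative name and groups that lie apart: 12 each way, 6 each way for the difference between sugars, and up to 4 members of each list with the largest absolute difference. Lists were matched by symbol and are incomplete. Members, lists and rules were chosen with earlier results of these data known. Alternatives were quantile normalisation, centring, a filter on dim probes, trend and robust moderation, a test against a log2 difference of 0.5, adjusted p alone, only the compared arrays, a replicate block and leaving out each array.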

Additional observations from a re-analysis of the deposited data

Results flagged for a closer look

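The contrast between anaerobic and DNP-treated embryos differed between the 2 sugars, by a test of the difference itself, for 154 probes. The 6 named genes with a more positive difference on mannitol were Chib3H-h (2.39), RAmy3D (1.97), ICL (1.84), DREB1I (1.67), salT (1.47) and OsC3H37 (1.31). The 6 with a more positive difference on glucose were OsPPT3 (-2.38), opda (-1.94), PAC1A (-1.94), RPL39C (-1.88), CYP85A1 (-1.86) and SPC22 (-1.83). Of the 119 probes more positive on glucose, 102 were called higher in GlcAC than in GlcDNP and 101 were not called on mannitol. Of the 35 more positive on mannitol, 25 were called higher in MtlAC than in MtlDNP and 12 were called lower in GlcAC than in GlcDNP. As given above, none of these 12 named calls held without each of the 8 arrays in turn.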

How the results depend on the processing

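Direction was followed only for the genes chosen under the rule for named genes, and none of their called values changed direction under any alternative run. Of the values not called, 5 changed sign when 1 array was left out: MS to -0.14 and the invertase gene CIN5 to 0.05 without replicate 1 of MtlDNP, OsWRKY76 to 0.03 without replicate 2 of MtlDNP, ANT to 0.01 without replicate 1 of MtlAC and NSHB4 to -0.16 without replicate 2 of MtlAC. The all-probe medians against Mtl, 0.10 for MtlAC and 0.15 for MtlDNP, were -0.02 and -0.01 with dim probes removed. For MtlAC versus MtlDNP (750) the count was 251 with the test against 0.5 and 116 with only the compared arrays, and it was 389 to 691 when each array was left out. For GlcAC versus GlcDNP (1929) it was 765 with the test against 0.5, 3176 by adjusted p alone and 1216 to 1665 leaving out an array. For the difference between sugars (154) it was 512 with dim probes removed, 445 with trend and robust moderation, 14 with the test against 0.5, 0 with only the compared arrays and 0 to 73 leaving out an array. For MtlAC versus Mtl (4475) it was 2510 with the test against 0.5, 8812 by adjusted p alone and 3608 to 4505 leaving out an array. For MtlDNP versus Mtl (5983) these were 3540, 11712 and 5099 to 6595. After quantile normalisation 41.2% of calls for MtlAC versus Mtl were higher, in place of 29.1%. Apart from 88 for the difference between sugars with the replicate block, the other counts lay within 1.5 times the reported ones. Same-numbered arrays of different conditions had deviations from their group means that correlated at -0.0214 to 0.0873. A correlation over all probes cannot show whether same-numbered arrays shared a batch that acts on few probes. With the replicate block the counts were 761, 1947, 88, 4502 and 6004 in the order above. Values of single genes for MtlAC versus MtlDNP kept their side of the threshold in 1224 instances, lost a call in 120 and gained one in 18. For the difference between sugars they kept it in 83 and lost it in 109. The cause of these moves was not tested, except that fits with fewer arrays have less to estimate the spread from. Levels under about 2.28, the 25th percentile, are not shown to be above background.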

Other observations

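Further named genes among the 750 calls, picked here after their values were seen, extend the groups above. OAT, ornithine aminotransferase, was at 6.55 and 6.98 in MtlAC and 4.60 and 5.15 in MtlDNP (1.89 ± 0.23), with 8.17 and 7.99 in Mtl. The strigolactone receptor gene D14 was at 5.46 and 5.02 in MtlAC and 3.68 and 3.06 in MtlDNP (1.87 ± 0.26), with 6.89 and 6.59 in Mtl. ACLB-1, a subunit gene of ATP-citrate lyase, was higher in MtlAC by 1.32 ± 0.18. Among transcription factor genes BZIP52 was at 6.10 and 6.42 in MtlAC and 4.18 and 4.28 in MtlDNP (2.03 ± 0.20), and DOF4 at 9.19 and 9.28 against 7.40 and 7.84 (1.62 ± 0.18). For these 5 genes the order was Mtl, then MtlAC, then MtlDNP from highest to lowest, and their calls held without each of the 4 arrays in turn.

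Other genes were highest without oxygen. OsSAP5, a stress-associated zinc finger gene, was at 9.52 and 9.59 in MtlAC, 7.38 and 7.54 in MtlDNP and 8.03 and 7.87 in Mtl (2.10 ± 0.16). CCR1 was at 3.79 and 4.89 in MtlAC and 2.79 and 2.42 in MtlDNP (1.74 ± 0.30), lost without replicate 2 of MtlDNP. Downward, OsRSH3, named for the RelA/SpoT enzymes that make the alarmone ppGpp, was at 4.82 and 4.92 in MtlAC, 5.95 and 6.00 in MtlDNP and 4.94 and 4.68 in Mtl (-1.11 ± 0.17). The arginine decarboxylase gene ADC1 (-1.04 ± 0.18) and the abscisic acid signalling kinase gene OsSAPK2 (-1.08 ± 0.20) were lower as well. OsRSH3 was not called without either MtlAC array, and ADC1 and OsSAPK2 were each not called in 3 of the 4 fits that leave out an array.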
